A study of Arabidopsis thaliana with 12 samples.

Results

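The genotype difference of the heat response is the log2 change of a transcript after heat in atcyp18-2 leaves minus its log2 change after heat in wild-type (WT) leaves. It was measured in Arabidopsis thaliana ecotype Col-0, by RNA-seq of total RNA from rosette leaves, in 4 groups of 3 samples: WT at 23 °C, WT after 1 h at 47 °C, atcyp18-2 at 23 °C and atcyp18-2 after 1 h at 47 °C. All plants were 3 weeks old, grown on soil under long days, and the mutant is named for the cyclophilin gene AtCYP18-2 (AT2G36130). The kind of allele was not given in the sources used here. The labels name no control harvested at the end of the heating hour, so heat and time of day cannot be told apart within a genotype. Nothing in the labels says that replicates came from separate plants, so the spread behind every p-value may be technical alone. Of 23174 genes in the count table, 23160 had an annotated transcript and entered the contrast, and 16629 passed the filter on low counts and were tested.

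Leaves answer a sudden rise in temperature with heat shock factors, transcription factors that switch on chaperone genes, while genes of growth and of many biosynthetic pathways are turned down. Cyclophilins are peptidyl-prolyl isomerases that help proteins fold or change shape, and some of them work in the nucleus with the splicing machinery. The contrast asks whether that answer differs in atcyp18-2, as opposed to a change in the level of a transcript in both conditions alike. A negative value means that a transcript rose less, or fell more, after heat in atcyp18-2 than in WT.

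No gene was called in the genotype difference. With edgeR's quasi-likelihood test and Benjamini-Hochberg adjustment, 0 of 16629 genes had an adjusted p below 0.05 (0%), and the smallest adjusted p was 0.298. At an unadjusted p below 0.05 there were 441 genes with a higher response in atcyp18-2 (2.65% of those tested) and 469 with a lower one (2.82%), 5.47% together. DESeq2 called 30 genes, 15 in each direction, and had 333 higher and 362 lower at an unadjusted p below 0.05. Limma voom with sample quality weights called 0, with 1118 higher and 1316 lower at that unadjusted threshold. The median standard error of the difference was 0.40 on the log2 scale, and the median unadjusted 95% interval reached 0.86 to either side. A call after adjustment over all genes asks for more, so 0.86 is not the smallest difference that could be called. The count of 0 therefore does not show that the genotypes responded alike.

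**Figure D1:**
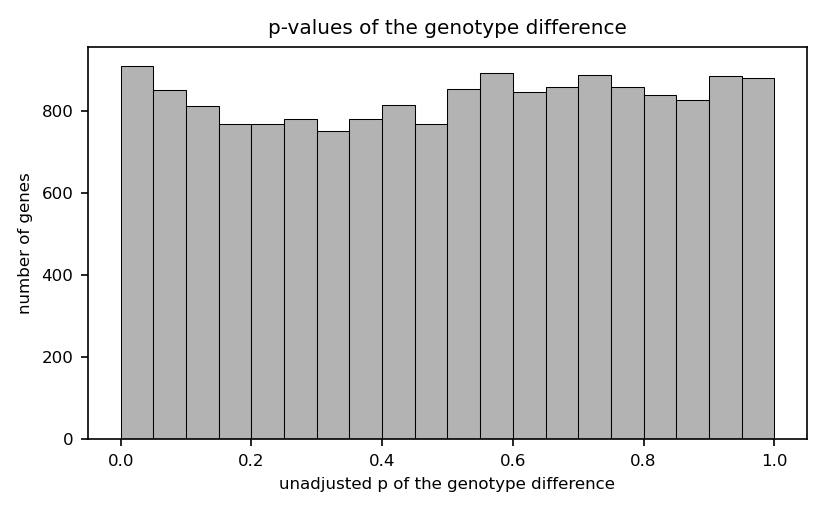
Number of genes (y axis) by unadjusted p of the genotype difference (x axis, bins of 0.05), over 16629 genes and 12 samples. The lowest bin holds 910 genes, and the other bins hold 752 to 893.

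Against this, each genotype had a large heat response of its own. In WT 2200 genes rose and 1710 fell (13.2% and 10.3% of genes tested, adjusted p below 0.05 by edgeR), and in atcyp18-2 2812 rose and 2545 fell (16.9% and 15.3%). Across all 16629 genes the log2 changes of the genotypes, which share no sample, correlated with Pearson's r = 0.907, and with r = 0.967 across the 5323 nuclear genes that averaged 10 CPM or more. These are correlations across genes, which share libraries and depth and are not independent replicates. CPM is a gene's reads relative to its library's total, after scaling by TMM, edgeR's trimmed mean of M-values. That scaling sets the median gene near 0. Scaled by library totals, the median heat response was -0.77 in WT and -0.76 in atcyp18-2, with 799 genes higher and 7498 lower in WT and 1010 higher and 7406 lower in atcyp18-2. The shift is nearly the same in both genotypes, so the median genotype difference stayed at -0.004 against -0.002 under TMM, and 204 genes were higher and 469 lower at an unadjusted p below 0.05.

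**Figure D2:**
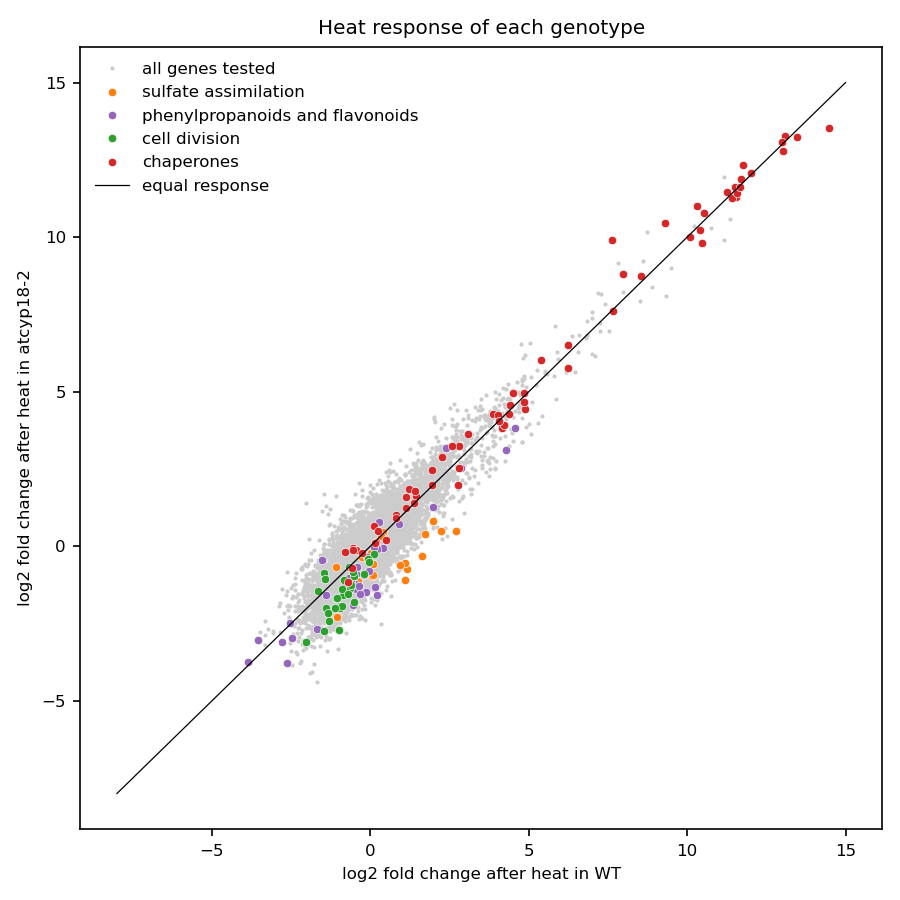
Log2 change after heat in WT (x axis) and in atcyp18-2 (y axis) for the 16629 genes tested, each point a gene, with 4 groups of lists in colour and the line of equal response. Chaperones lie along the line up to values above 11, whereas 17 of 20 sulfate assimilation genes lie below it.

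Genes with a heat response in the mean of both genotypes had, at the median, an estimate slightly farther from 0 in atcyp18-2. The mean heat effect, a contrast of the same 12 samples, called 3750 genes higher (22.6%) and 3653 lower (22%). Among the 3750 raised genes the median genotype difference was 0.15, with 262 higher and 59 lower at an unadjusted p below 0.05. These are 6.99% and 1.57%, against 2.65% and 2.82% of all genes. Among the 3653 lowered genes the median was -0.22, with 38 higher (1.04%) and 297 lower (8.13%). Without WT control replicate 3 the median of the raised genes was 0.05, without WT heat replicate 3 it was 0.06, and with sample quality weights 0.01. The median of the lowered genes was -0.12 without WT heat replicate 3, -0.08 with sample quality weights, and -0.09 with library totals, under which 10318 genes counted as lowered. The 79 genes with a mean rise of at least 5 on the log2 scale had median rises of 7.29 in WT and 7.60 in atcyp18-2.

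The libraries also differed within groups along 1 component, to which 53.3% of the within-group variance of nuclear genes belonged. WT control replicate 3, WT heat replicate 3, atcyp18-2 control replicate 1 and atcyp18-2 heat replicate 2 each lay opposite to the other libraries of their group. With the score of this component as a covariate, a fit that treats as known a score taken from the same counts, 344 genes were called in the difference (148 higher and 196 lower). The 30 genes called by DESeq2 were all among them. The same 4 libraries stood apart in the share of chloroplast reads, at 65.8% against 59.9 and 60.4% in WT controls and 62% against 69.1 and 69.7% in heated WT. In atcyp18-2 the share was 60.4% against 63.7 and 64.2% in controls and 62.6% against 69.8 and 70.2% after heat. The part of that share in the differences was not tested. Libraries held 9075074 to 12493380 reads, of which 2572051 to 4347798 came from nuclear genes, while 59.9 to 70.2% were of chloroplast genes.

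AtCYP18-2 itself (AT2G36130) was lower in every mutant sample than in every WT sample. It stood at 6.29, 6.02 and 5.60 CPM in WT controls and at 1.05, 0.951 and 1.04 CPM in atcyp18-2 controls. After heat it stood at 7.48, 7.36 and 5.52 CPM in WT and at 2.14, 4.13 and 2.83 CPM in atcyp18-2. Heated mutant samples lay above mutant controls, while the WT groups overlapped. The change after heat was 0.17 in WT (edgeR adjusted p = 0.615) and 1.59 in atcyp18-2 (adjusted p = 0.000816). Scaled by library totals these were -0.61 (adjusted p = 0.111) and 0.88 (adjusted p = 0.0606), so the mutant rise was no longer called. The genotype difference of its heat response was 1.42 ± 0.35 (SE), with an unadjusted p of 0.00152 in the edgeR test and an adjusted p of 0.561.

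The median difference of 34 gene lists ranged from -1.11 to 0.40, against 0.00 for all genes, whose interquartile range was -0.27 to 0.27. No member of any list was called in the main edgeR fit, which has no covariate. Under DESeq2, the library component or its sign, 83 results over the 68 named genes were called, a count that includes AtCYP18-2. A gene counts once for each of these settings, which called 30, 344 and 179 of all 16629 genes. Most named genes were chosen by a small p in this same contrast, so these calls are no separate support for the lists. Of all genes tested, 13.2% rose and 10.3% fell in WT, and 16.9% rose and 15.3% fell in atcyp18-2. These shares belong beside the counts of rising and falling members under TMM below. Beside the counts with library totals belong 799 rising and 7498 falling genes in WT, of 16629. In atcyp18-2 these were 1010 and 7406. The lists that lay lowest were sulfate assimilation, flavonoids, cell division, phenylpropanoids and aliphatic glucosinolates, and those that lay highest were auxin response, co-chaperones and glutathione S-transferases. The members' levels are RNA shares of a bulk sample, in which fewer cells of a type and less RNA per cell cannot be told apart.

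**Figure D3:**
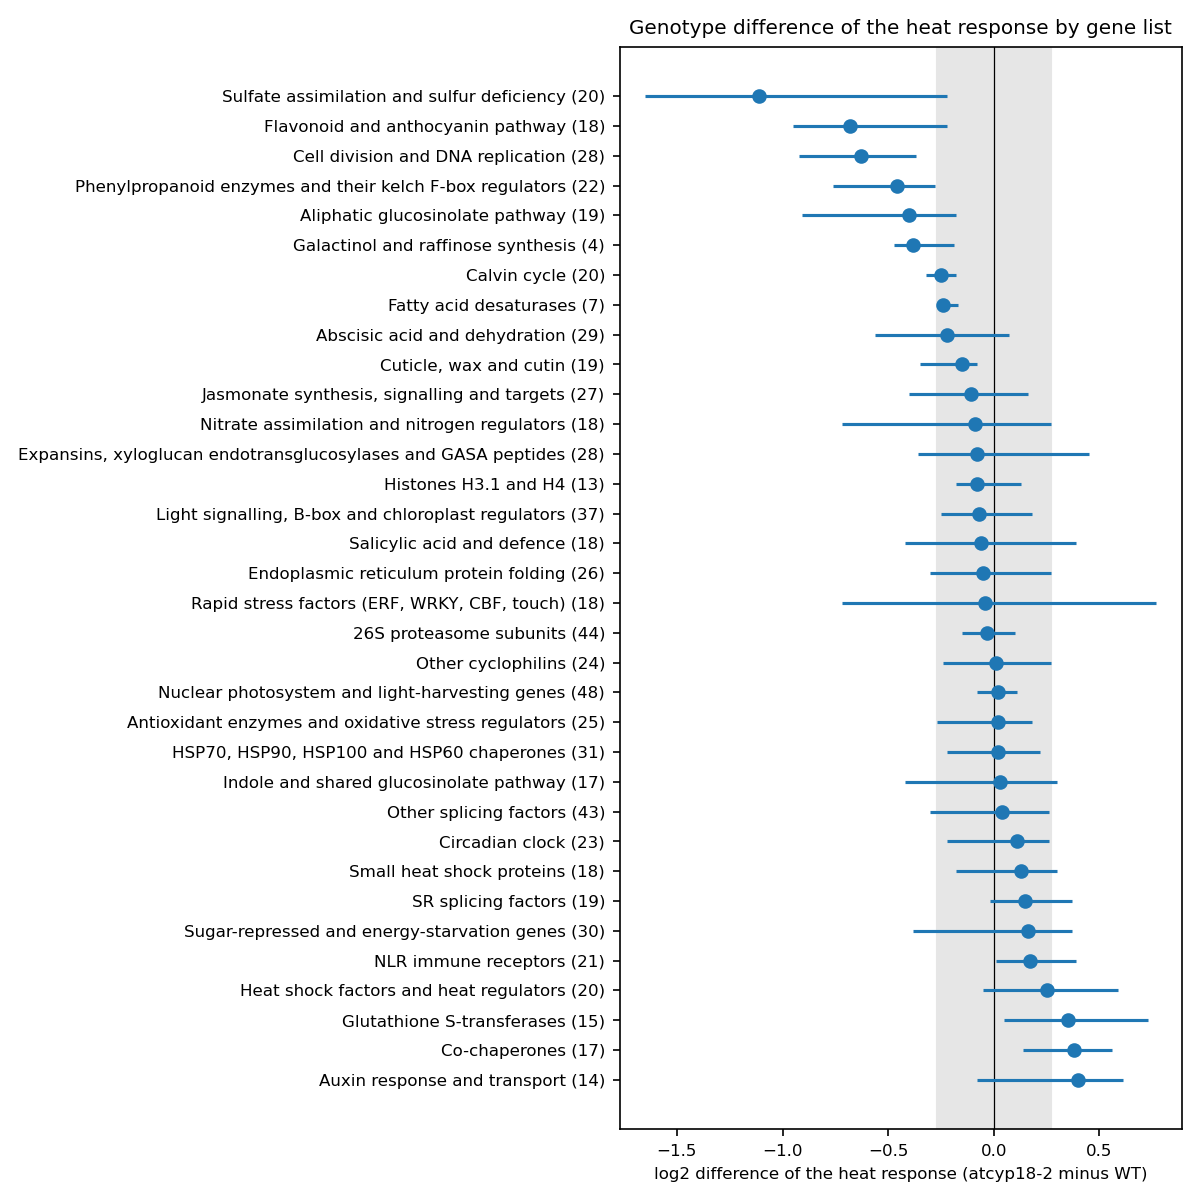
Genotype difference of the heat response (x axis, log2, atcyp18-2 minus WT) for 34 gene lists (y axis, number of fitted genes in brackets). Points are medians over genes, lines the interquartile range of the genes and the grey band that of all genes tested; sulfate assimilation lies lowest at a median of -1.11.

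Sulfate assimilation had the lowest median difference of the 34 lists, with a median heat response above 0 in WT and below 0 in atcyp18-2 under TMM, and below 0 in both with library totals. Plants activate sulfate with ATP, reduce it through APS reductase and sulfite reductase and build cysteine from the sulfide. A set of sulfur-deficiency genes accompanies that route when sulfur runs short. Of 23 listed genes 20 were fitted, and their median difference was -1.11, with a range of -2.22 to 0.42 and 17 of 20 below 0. At an unadjusted p below 0.05, 10 members were lower in the difference (50% against 2.82% of all genes) and 0 were higher. In WT 8 of the 20 rose and 3 fell, whereas in atcyp18-2 1 rose and 4 fell. Scaled by library totals, 2 rose and 8 fell in WT, and 0 rose and 13 fell in atcyp18-2. Over all 16629 genes that scaling had 7498 falling in WT and 7406 in atcyp18-2. The median heat response of the list was 0.37 in WT and -0.44 in atcyp18-2, and scaled by library totals -0.39 and -1.18. In 9 members the estimate was above 0 in WT and below 0 in atcyp18-2, as in 1335 of all 16629 genes. Without heat the median member was 0.33 higher in atcyp18-2 than in WT, and after heat 0.48 lower, a log2 difference of -0.48.

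The reductase step illustrates the pattern. APR1 (AT4G04610), an APS reductase, stood at 19.9, 27.2 and 19.4 CPM in WT controls and at 56.8, 48.3 and 42.5 CPM after heat. In atcyp18-2 it stood at 39.2, 31.9 and 51.6 CPM in controls and at 27.0, 19.7 and 27.3 CPM after heat. All heated WT samples were thus above their controls and all heated mutant samples below theirs. The change was 1.15 in WT (edgeR adjusted p = 0.00189) and -0.73 in atcyp18-2 (adjusted p = 0.0199). The genotype difference was -1.88 ± 0.30, with the smallest p of any gene (unadjusted p = 3.42e-05, adjusted p = 0.298). With library totals the WT change was 0.35 (adjusted p = 0.226) and the mutant change -1.51 (adjusted p = 0.000453). SULTR4;2 (AT3G12520), a vacuolar sulfate exporter, had a difference of -1.62 ± 0.33 (unadjusted p = 0.000286 in edgeR, adjusted p = 0.371), at a low level of 1.60 to 3.88 CPM over all samples.

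Other genes of the list with an unadjusted p below 0.05, chosen for naming after their values were seen, covered reduction, activation and the deficiency response. The APS reductases APR3 (AT4G21990) and APR2 (AT1G62180) had differences of -1.55 and -1.04. The APS kinases AKN2 (AT4G39940) and APK (AT2G14750), which divert activated sulfate to sulfation, were at -1.25 and -0.73. The sulfur-deficiency genes ATSDI1 (AT5G48850), AT1G04770 and LSU2 (AT5G24660) were at -2.22, -2.21 and -1.97, on means of 3.38 to 6.50 CPM. SHM7 (AT1G36370), annotated as a serine hydroxymethyltransferase, was at -1.73. It stood at 18.4, 27.2 and 9.96 CPM in WT controls and at 79.5, 87.7 and 96.1 CPM after heat. In atcyp18-2 it stood at 49.9, 28.4 and 45.3 CPM and after heat at 52.2, 55.9 and 67.4 CPM. Its heated samples lay above the controls in both genotypes, with a wider gap in WT. By contrast, SIR (AT5G04590), sulfite reductase and the most abundant member, had a difference of -0.26 ± 0.23 (edgeR adjusted p = 0.999, 95% interval -0.76 to 0.23). The broader KEGG pathway of sulfur metabolism, with 35 fitted genes, had a median of -0.23, with 7 lower (20%) and 0 higher at an unadjusted p below 0.05.

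**Figure D4:**
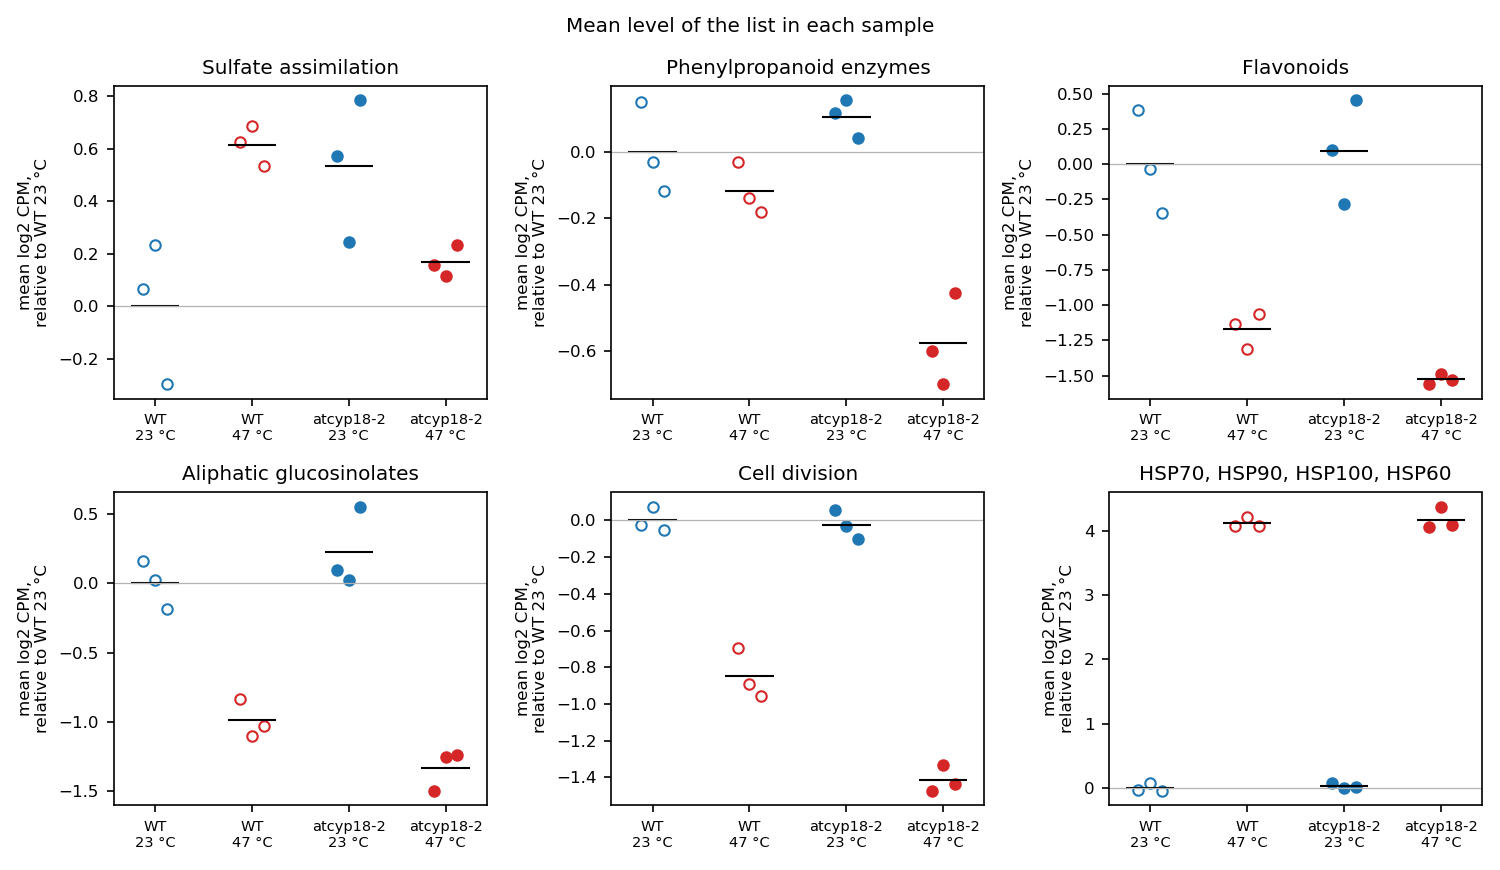
Mean log2 CPM of a list's fitted genes in each sample (y axis, relative to the mean of WT at 23 °C) for 6 lists; open symbols are WT, filled symbols atcyp18-2, blue 23 °C, red 47 °C, and bars are means of 3 samples. The sulfate assimilation level lies at 0.53 to 0.69 in heated WT, above its controls, and at 0.12 to 0.23 in heated atcyp18-2, below its controls.

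Phenylpropanoid enzymes, which turn phenylalanine into lignin and flavonoid precursors, had estimates below 0 in the difference for nearly all members, though none was called in the main fit. Of the 18 fitted enzymes 17 had a difference below 0, with a median of -0.46, and 6 were lower at an unadjusted p below 0.05 (33.3%). In WT 1 enzyme rose and 4 fell, and in atcyp18-2 1 rose and 11 fell, where 10.3% and 15.3% of all genes fell. With library totals 0 rose in either, while 12 fell in WT and 16 in atcyp18-2, where 7498 and 7406 of all 16629 genes fell. PAL1 (AT2G37040), a phenylalanine ammonia-lyase of the entry step, stood at 98.0, 82.9 and 69.9 CPM in WT controls and at 76.7, 61.4 and 62.8 CPM after heat. In atcyp18-2 it stood at 107, 104 and 103 CPM in controls and at 33.7, 35.7 and 39.3 CPM after heat. The WT groups overlapped, the mutant groups did not, and the heated mutant samples were the lowest of all. The difference was -1.21 ± 0.22 (unadjusted p = 9.84e-05 in edgeR, adjusted p = 0.363). PAL2 (AT3G53260), a second such lyase, had a difference of -0.76 ± 0.20 (edgeR adjusted p = 0.624). It stood at 64.0 to 75.9 CPM in heated WT and at 38.2 to 47.6 CPM in heated atcyp18-2, from 87.1 to 106 CPM over all controls.

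The 4 kelch F-box genes of the list, whose products mark phenylalanine ammonia-lyase for breakdown, rose in both genotypes. Their median rise was 3.57 in WT and 3.15 in atcyp18-2, where the controls already stood 1.75 higher. AT3G59940, the most abundant gene of the list, had a difference of -0.32 ± 0.30 (edgeR adjusted p = 0.999).

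Flavonoid genes, downstream of the phenylpropanoid route, had a median difference below 0 as well. Of 22 listed genes 18 were fitted, with a median of -0.68, 14 below 0 and 5 lower at an unadjusted p below 0.05 (27.8%). This median was -0.18 without WT heat replicate 3. In WT 9 fell and 1 rose, and in atcyp18-2 15 fell and 1 rose, where 10.3% and 15.3% of all genes fell. With library totals the excess in the mutant was gone, as 17 fell in WT and 16 in atcyp18-2, and 0 rose. Of all 16629 genes 7498 and 7406 fell under that scaling. The median difference of the list stayed at -0.68. FLS1 (AT5G08640), flavonol synthase, stood at 14.5, 19.0 and 13.4 CPM in WT controls and at 10.6, 11 and 10.5 CPM after heat. In atcyp18-2 it stood at 21.2, 20.7 and 20 CPM and after heat at 4.61, 4.95 and 6.91 CPM. No groups overlapped, and the mutant spanned the WT values on both sides. Its difference was -1.36 ± 0.26 (unadjusted p = 0.000165 in edgeR, adjusted p = 0.363). CHIL (AT5G05270), a chalcone isomerase-like protein, was at -1.32 ± 0.29 (adjusted p = 0.543). TT4 (AT5G13930), chalcone synthase and the most abundant member, was at -0.70 ± 0.37 (adjusted p = 0.94). The errors were wide, with a median standard error of 0.74 over the list against 0.40 over all genes. In the KEGG pathway of flavonoid biosynthesis, the lowest median of 109 pathways with at least 10 fitted genes, all 12 fitted genes were below 0, with a median of -0.47.

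**Figure D5:**
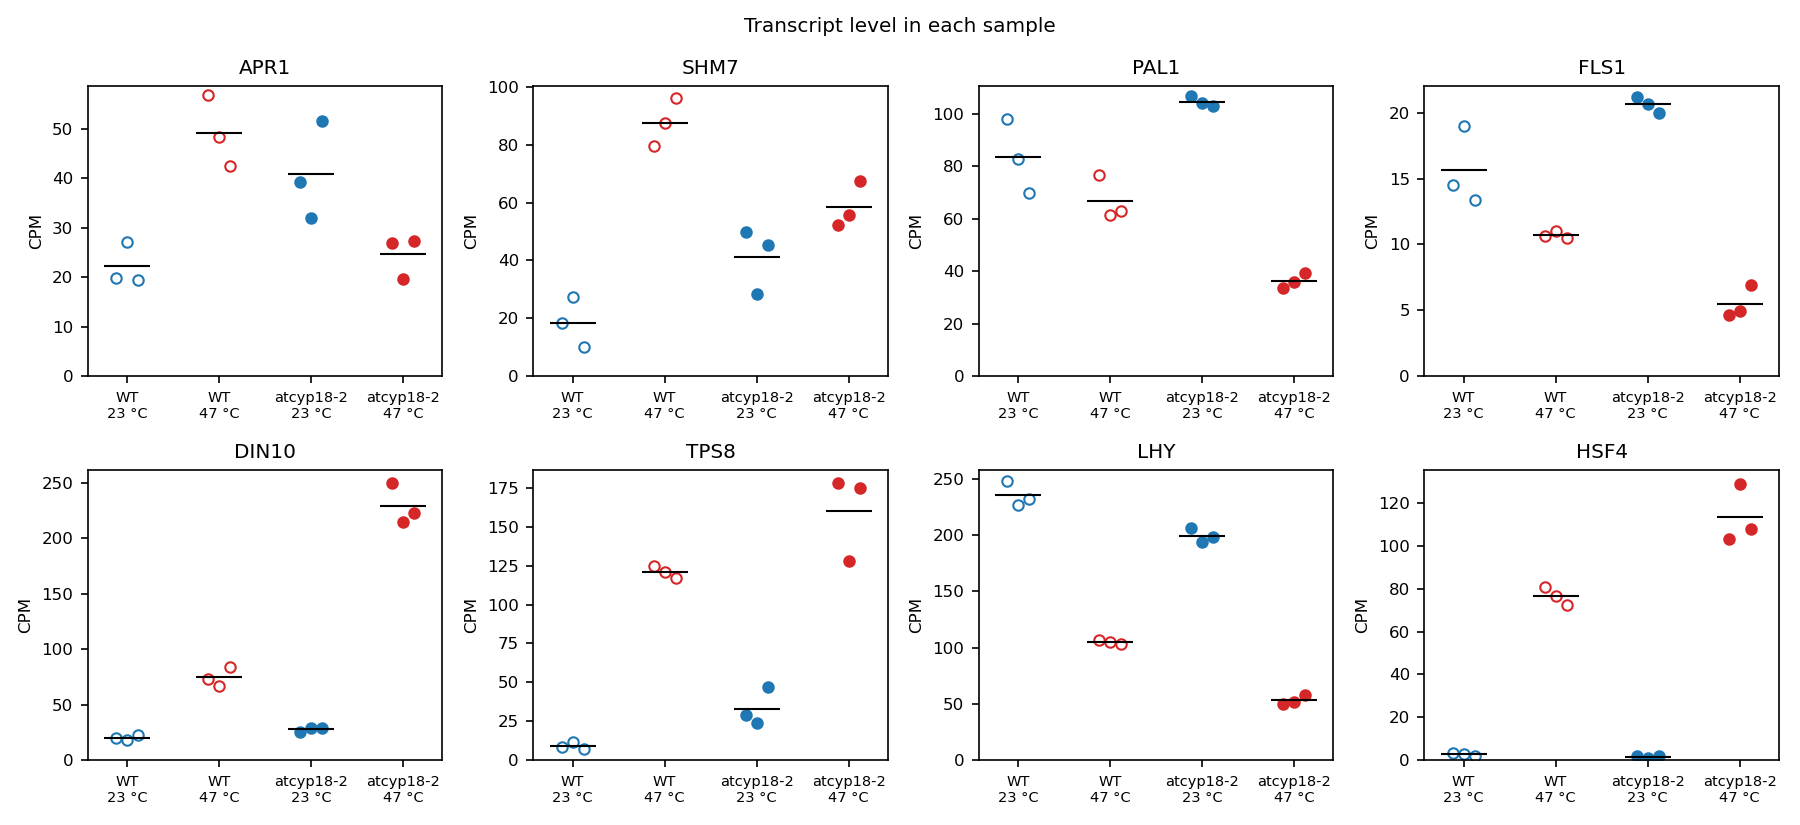
CPM in each sample (y axis, linear from 0) for 8 genes; open symbols are WT, filled symbols atcyp18-2, blue 23 °C, red 47 °C, and bars are means of 3 samples. PAL1 and FLS1 are lowest in heated atcyp18-2, and DIN10 is highest there, at 215 to 250.0 CPM.

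Aliphatic glucosinolate genes, which make sulfur-containing defence compounds from methionine, fell in both genotypes. In WT 13 of 19 fell and in atcyp18-2 14, with medians of -1.23 and -1.83, against 10.3% and 15.3% of all genes falling. With library totals 17 fell in WT and 18 in atcyp18-2, where 7498 and 7406 of all 16629 genes fell. The median difference was -0.40, and 18 of 19 members were below 0, 4 of them at an unadjusted p below 0.05 (21.1%). It ranged from -0.60 without WT control replicate 1 to -0.23 without atcyp18-2 control replicate 3. FMO GS-OX3 (AT1G62560), an S-oxygenase of side chains, had 8.15, 4.95 and 5.60 CPM in heated WT and 3.13, 2.71 and 2.36 CPM in heated atcyp18-2, below all controls at 13.4 to 16.1 CPM. Its difference was -1.28 ± 0.29 (edgeR adjusted p = 0.543). GSTF11 (AT3G03190), a glutathione S-transferase of the core pathway, was at -2.70 ± 0.72 on a mean of 1.93 CPM (adjusted p = 0.67). IIL1 (AT4G13430), of chain elongation, was at -0.10 ± 0.18. The 17 indole and shared glucosinolate genes had a median of 0.03. The 2 members at an unadjusted p below 0.05 were IGMT1 (AT1G21100), a methyltransferase, at 1.41 ± 0.43, and SUR1 (AT2G20610), the C-S lyase, at -0.65 ± 0.29.

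Cell division genes fell in both genotypes, and most estimates of the difference were below 0. Of 28 fitted cyclins, kinases and replication genes 16 fell in WT and 21 in atcyp18-2, and none rose in either. Over all genes 10.3% fell in WT and 15.3% in atcyp18-2, so more falls in the mutant are not particular to this list. With library totals 27 fell in WT and 28 in atcyp18-2, where 7498 and 7406 of all 16629 genes fell. The median responses were -0.90 and -1.50, the median difference was -0.63, and 24 of 28 were below 0. At an unadjusted p below 0.05, 7 were lower (25%) and 0 higher. CYC1BAT (AT5G06150), a mitotic B-type cyclin, stood at 2.54, 2.40 and 3.34 CPM in heated WT and at 1.32, 1.89 and 1.10 CPM in heated atcyp18-2, from 6.22 to 9.39 CPM over the controls. The heated groups did not overlap. Its difference was -1.13 ± 0.35 (edgeR adjusted p = 0.781). CYCB2;4 (AT1G76310), another B-type cyclin, was at -1.74 ± 0.56 (adjusted p = 0.813). TSO2 (AT3G27060), a ribonucleotide reductase subunit that supplies DNA building blocks, was at -0.72 ± 0.27 (adjusted p = 0.901). These are low transcripts in rosette leaves, and only 5 members had a mean of at least 10 CPM. In KEGG, DNA replication had a median of -0.36 over 44 genes and homologous recombination -0.27 over 54. The 13 genes of histones H3.1 and H4, which package newly made DNA, had a median of -0.08, with AT5G10390 at -1.27 ± 0.54.

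Primary metabolism was near the level of all genes or slightly below it. The Calvin cycle, which fixes CO2 with Rubisco, had 18 of 20 genes below 0, a median of -0.25, and 0 at an unadjusted p below 0.05. In WT 1 of its genes rose and 1 fell, and in atcyp18-2 1 rose and 6 fell. With library totals 0 rose and 18 fell in each, where 7498 and 7406 of all 16629 genes fell. Its median difference was -0.36 without WT control replicate 3 and -0.14 without atcyp18-2 heat replicate 2. GAPA-2 (AT1G12900), a glyceraldehyde phosphate dehydrogenase, was at -0.71 ± 0.38, and RBCS1A (AT1G67090), a Rubisco small subunit, at -0.30 ± 0.49. The 48 nuclear photosystem and light-harvesting genes had a median of 0.02, or -0.17 without WT control replicate 3 and 0.13 without atcyp18-2 heat replicate 2. Genes of the chloroplast genome had a median of 0.24, with 80 of 88 above 0, and those of the mitochondrial genome -0.24, with 77 of 83 below 0. None of either passed an unadjusted p of 0.05. These organelle genes share transcripts and library depth, so they are not independent of one another. Over 227 genes of amino acid biosynthesis in KEGG the median was -0.16, with 4 higher and 15 lower at an unadjusted p below 0.05. These are 1.76% and 6.61%, against 2.65% and 2.82% of all genes. Over 311 nuclear genes described as ribosomal proteins the median was -0.08.

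Sugar and nitrogen genes had members on both sides of 0. Sugar-repressed and energy-starvation genes, which are switched on when carbon is short, had 3 members higher and 3 lower at an unadjusted p below 0.05 among 30. That is 10% each way, against 2.65% and 2.82% of all genes, at a median of 0.16. DIN10 (AT5G20250), a dark-inducible gene of the raffinose synthase family, stood at 72.7, 66.5 and 84.1 CPM in heated WT and at 250.0, 215 and 223 CPM in heated atcyp18-2. The controls lay at 17.9 to 22.5 CPM in WT and at 25.6 to 28.7 CPM in atcyp18-2. No groups overlapped, and the difference was 1.16 ± 0.21 (unadjusted p = 8.91e-05 in edgeR, adjusted p = 0.363). TPS8 (AT1G70290), of the trehalose-6-phosphate synthase family, went the other way, at -1.48 ± 0.35 (adjusted p = 0.543). Its controls stood at 6.93 to 11.4 CPM in WT and at 23.7 to 46.9 CPM in atcyp18-2, while heated samples reached 117 to 125 and 128 to 178 CPM. Mutant samples were thus above WT samples in both conditions, with the wider gap among the controls. TPS11 (AT2G18700), the most abundant member, was at -0.64 ± 0.28.

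Among 18 nitrate assimilation and nitrogen regulator genes 4 were lower and 1 higher at an unadjusted p below 0.05, with a median of -0.09. These are 22.2% and 5.56%, against 2.82% and 2.65% of all genes. BT2 (AT3G48360), a BTB and TAZ domain protein that restrains nitrate use, was at -1.37 ± 0.38. NIA1 (AT1G77760), nitrate reductase, was at -0.96 ± 0.27 (edgeR adjusted p = 0.701 for NIA1). Heated atcyp18-2 had 65.1, 47.3 and 52.3 CPM of NIA1, against 107, 169 and 115 CPM in heated WT and 140 to 200 CPM over all controls. GLU1 (AT5G04140), ferredoxin-dependent glutamate synthase, was at -0.34 ± 0.25.

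Chaperones rose in both genotypes, with medians close to one another. Small heat shock proteins, which hold unfolding proteins, had median rises of 11.47 in WT and 11.28 in atcyp18-2, with 15 of 18 members called higher in each. With library totals the same number was called higher in each, and 2 fell in WT. Their median difference was 0.13, and 0 were at an unadjusted p below 0.05. AT5G37670, the member with the smallest p, was at 2.30 ± 1.18. Its level in atcyp18-2 minus WT was -1.045 ± 1.093 in controls and 1.253 ± 0.414 after heat. Control counts of genes that rise this much are low and seem to include 1 added read, on which the size of the rise depends. The HSP70, HSP90, HSP100 and HSP60 chaperones, which refold or untangle proteins, rose by medians of 3.87 and 3.83, at a median difference of 0.02. Of 31 members 28 were called higher in each genotype and 1 lower in atcyp18-2. With library totals 22 were called higher in WT and 24 in atcyp18-2, and 2 lower in each. HSP70 (AT3G12580), the most abundant, stood at 6090, 6580 and 5300 CPM in heated WT and at 6620, 6960 and 6510 CPM in heated atcyp18-2. These groups overlapped, and its difference was -0.17 (edgeR adjusted p = 0.999). The plastid chaperone cpHsc70-1 (AT4G24280) was at 0.46 ± 0.20 and the mitochondrial Hsp89.1 (AT3G07770) at 0.55 ± 0.24 (adjusted p = 0.901 for each). Sequence is nearly identical between some of these paralogs, so the counting may have split their reads.

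Co-chaperones and heat shock factors had medians above 0 that depended on single libraries. Of 17 co-chaperones, which load clients onto HSP70 and HSP90, 14 had a difference above 0, at a median of 0.38. That median was 0.11 without atcyp18-2 heat replicate 2. J2 (AT5G22060), a J-domain protein, was at 0.61 ± 0.26 and BAG7 (AT5G62390) at 0.44 ± 0.20 (edgeR adjusted p = 0.901 for each). Among 20 heat shock factors and regulators the median was 0.25, and -0.02 without atcyp18-2 heat replicate 2 and 0.61 without WT heat replicate 3. HSF4 (AT4G36990), a class B heat shock factor, stood at 80.9, 76.4 and 72.3 CPM in heated WT and at 103, 129 and 108 CPM in heated atcyp18-2. Its controls were at 1.87 to 3.25 CPM in WT and 0.951 to 1.91 CPM in atcyp18-2. The difference was 1.33 ± 0.33 (unadjusted p = 0.00162 in edgeR, adjusted p = 0.566). HSF A4A (AT4G18880), a class A factor, was at 1.01 ± 0.42. HSFA2 (AT2G26150), the main heat-induced activator, was at -0.51 ± 0.32 (adjusted p = 0.968), with 747 to 824 CPM in heated WT and 593 to 725 CPM in heated atcyp18-2.

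Protein folding in the endoplasmic reticulum had single genes on both sides of 0, at a median of -0.05 over 26 genes. BIP2 (AT5G42020), an HSP70 of that compartment, was at -0.88 ± 0.30 (edgeR adjusted p = 0.873). It stood at 168, 152 and 148 CPM in heated WT and at 74.9, 107 and 80.6 CPM in heated atcyp18-2. BZIP17 (AT2G40950), a membrane-bound stress factor, was at 0.75 ± 0.25 (adjusted p = 0.873). The 44 proteasome subunits had a median of -0.03 and 0 at an unadjusted p below 0.05.

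Splicing genes had medians near that of all genes. SR splicing factors, RNA-binding proteins that choose splice sites, had a median of 0.15 over 19 genes, or 0.01 without atcyp18-2 heat replicate 1 and 0.29 without atcyp18-2 control replicate 2, and 43 other splicing factors had 0.04. None of the 19 and none of the 43 reached an unadjusted p below 0.05. SR30 (AT1G09140) was at 0.54 ± 0.26 and SR45a (AT1G07350), the most abundant SR gene, at 0.22 ± 0.24. CDC5 (AT1G09770), of the complex that activates the spliceosome, was at 0.79 ± 0.37 (edgeR adjusted p = 0.92). In the KEGG spliceosome 5 of 172 genes were higher at an unadjusted p below 0.05, which at 2.91% is near the 2.65% of all genes, and 0 were lower, at a median of 0.08. The 24 other cyclophilins had a median of 0.01. Of these SQN (AT2G15790), a cyclophilin that works with HSP90, was at 1.06 ± 0.38, and CYP38 (AT3G01480), which assists photosystem II in the chloroplast, at -0.66 ± 0.26. Each value is the level of 1 annotated transcript of a gene, which may be 1 of several splice forms, so a change of splice form could move it. Splicing itself was not tested.

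Hormone and defence lists had medians within 0.22 of 0 for abscisic acid, jasmonate, salicylic acid, immune receptors and rapid stress factors. Single libraries moved some of these far: jasmonate was at -0.70 without WT control replicate 1 and 0.26 without atcyp18-2 control replicate 3. Salicylic acid was at -0.54 without WT control replicate 1, and rapid stress factors at 0.70 without atcyp18-2 control replicate 3. P5CS1 (AT2G39800), which makes proline during water stress, was at -0.72 ± 0.25. CNGC12 (AT2G46450), an ion channel of defence, was at -0.85 ± 0.26, with 24.3, 23.0 and 16.8 CPM in heated WT and 10.9, 8.49 and 10.5 CPM in heated atcyp18-2. HAI1 (AT5G59220), a phosphatase induced by abscisic acid, was at -1.02 ± 0.50, and MPK3 (AT3G45640), a stress-activated kinase, at -0.83 ± 0.36. ORA59 (AT1G06160), an ethylene and jasmonate response factor, was at 2.42 ± 0.80 on a mean of 1.15 CPM. Auxin response genes had a median of 0.40 over 14 genes, or 0.09 without atcyp18-2 heat replicate 2, and its member of smallest p, DFL1 (AT5G54510), an auxin-conjugating enzyme, was at 0.67 ± 0.27. Glutathione S-transferases had 0.35 over 15, or 0.08 without WT control replicate 1, with GSTF7 (AT1G02920) at 1.47 ± 0.65.

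The circadian clock had a median of 0.11 over 23 genes, with opposite members. LHY (AT1G01060), a morning repressor, stood at 107, 105 and 103 CPM in heated WT and at 49.8, 51.9 and 57.5 CPM in heated atcyp18-2. Its controls were at 227 to 248 CPM in WT and at 194 to 206 CPM in atcyp18-2. No groups overlapped, and the difference was -0.75 ± 0.18 (unadjusted p = 0.000973 in edgeR, adjusted p = 0.543). ELF3 (AT2G25930), of the evening complex, was at 0.73 ± 0.26. The 28 fitted cell wall genes had a median of -0.08, with 16 below 0. At an unadjusted p below 0.05, 3 were higher (10.7%) and 1 lower (3.57%), against 2.65% and 2.82% of all genes. Of the higher ones GASA1 (AT1G75750), a gibberellin-regulated peptide, was at 1.28 ± 0.31. It stood at 151, 154 and 134 CPM in heated WT and at 429, 372 and 379 CPM in heated atcyp18-2. XTH9 (AT4G03210), a xyloglucan endotransglucosylase, was at 0.82 ± 0.24.

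Of the 10 nuclear genes with the smallest p and at least 10 CPM, those not yet named were AT5G65480 (1.26 ± 0.20), AT3G47550 (1.18 ± 0.23), SERK4 (AT2G13790, a receptor-like kinase, 1.08 ± 0.21), UKL3 (AT1G55810, a uridine kinase, 1.04 ± 0.21), AT3G23080 (1.02 ± 0.20) and AT1G55960 (-1.10 ± 0.21). Their edgeR adjusted p ranged from 0.298 to 0.370.

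Markers of leaf cell types were also followed. The median difference was 0.04 for 4 mesophyll markers, 0.17 for 5 of 6 guard cell markers, 0.35 for 2 phloem markers and -0.03 for 3 of 4 epidermis markers. Flower and seed markers were not fitted, with at most 9 reads in any library, and of 4 root markers 1 was fitted. Their part in the pathway differences was not tested.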

How the data were processed

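The deposited table holds counts per transcript for 12 leaf libraries, per the file headers, and the tools listed there by the authors, per the submitters' processing notes, are HTSeq and DESeq, with no version. Aligner, genome build and strand setting were not given in the sources used here, so reads of a gene and an antisense partner cannot be told apart. Its lowest value is 1 in every library, as if 1 read had been added to each count. Counts were tested as deposited and CPM were computed from them, so every CPM includes that read. Read totals were taken after subtracting 1 from each count. The 12 normalized columns were not used. For each gene the annotated transcript with the largest sum was taken, giving 23160 of 23174 genes. After edgeR's expression filter and TMM scaling, edgeR 4.0.16 (R 4.3.3) fitted 4 group means to all 12 libraries, and quasi-likelihood tests with Benjamini-Hochberg adjustment at 0.05 gave the genotype difference, the heat response in each genotype and their mean. Standard errors are the log2 estimate divided by the root of the F statistic. The method was tested on simulated counts with noise drawn independently for each gene and library. They lack the library component of the real data, so the simulation does not cover its effect on the calls.

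Gene lists and the contrast were chosen with earlier results of these data known. Genes were named by this rule: the 10 nuclear genes of smallest p with a mean of at least 10 CPM, the 2 members of smallest p and the most abundant member of each list, and AtCYP18-2; the text names only part of the genes this rule gives, a selection made after their values were seen, and says where a gene lies outside it. Pathways with at least 10 fitted genes were taken from the KEGG gene lists deposited with the comparisons of heat with control in each genotype. Alternatives were DESeq2 1.42.0, limma 3.58.1 with voom and sample quality weights, other scalings and filters, leaving out each library, a replicate block, the library component and another choice of transcript. The labels do not say whether replicate numbers pair the samples, and the main fit did not pair them. Replicates of a group differed by more than counting noise (chi-square per degree of freedom of at least 2.69).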

Additional observations from a re-analysis of the deposited data

Results flagged for a closer look

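The mean level of the sulfate assimilation and sulfur deficiency genes was higher after heat in WT and lower after heat in atcyp18-2, under TMM scaling. The mean log2 CPM of the 20 fitted genes, relative to the mean of WT at 23 °C, was 0.06, 0.23 and -0.30 in WT controls and 0.62, 0.69 and 0.53 in heated WT. It was 0.57, 0.24 and 0.78 in atcyp18-2 controls and 0.16, 0.12 and 0.23 in heated atcyp18-2. Every heated WT sample lay above every WT control, and every heated mutant sample lay below every mutant control, although the closest pair lay at 0.24 and 0.23. The genotype difference of this level was -0.98. It was not tested as a list. Of the 20 members, 9 had estimates above 0 in WT and below 0 in atcyp18-2, as did 1335 of all 16629 genes. With library totals the median response of the list was below 0 in both, at -0.39 and -1.18.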

How the results depend on the processing

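In the genotype difference DESeq2 called 30 genes, the library component as a covariate 344 and the sign of that component, a choice made after seeing the data, 179. Every other setting, each of the 12 fits without 1 library and the replicate block called 0. The library component is estimated from the same counts, so its 344 calls rest on treating it as known. Without 1 library the mean heat effect called 6695 to 7594 genes, WT 2645 to 4113 and atcyp18-2 4215 to 5657. Library totals alone called 11467, 8297 and 8416 genes in that order. A filter of a mean of 10 CPM called 2938, 1807 and 2365 of the 5469 genes it left, where the main fit tested 16629. In WT, limma voom called 7157, the component 7471 and its sign 7006. In atcyp18-2 the component called 8628 and its sign 8523. With the replicate block, the mean heat effect called 6671 genes, WT 3042 and atcyp18-2 4502. Only 1 of 12 samples correlated best with its own number, and correlations of same-numbered samples ran from -0.643 to 0.508. The median difference of genes raised by heat was 0.05 to 0.19 without 1 library, 0.26 with library totals and 0.01 with voom. That of lowered genes was -0.29 to -0.12 without 1 library, -0.09 with library totals, -0.08 with voom, and -0.18 with the component or its sign. The AtCYP18-2 difference was 1.11 to 1.61 without 1 library, and 1.45 with the component, under which it was called. With limma voom with sample quality weights, medians were -0.15 for HSP70, HSP90, HSP100 and HSP60 chaperones, -0.02 for other splicing factors, 0.19 for other cyclophilins, 0.02 for abscisic acid and dehydration, 0.00 for circadian clock, 0.08 for light signalling, B-box and chloroplast regulators, -0.22 for nitrate assimilation and nitrogen regulators, -0.50 for cell division and DNA replication, 0.23 for histones H3.1 and H4, -0.32 for cuticle, wax and cutin. With the sign of the library component as a term, medians were 0.07 for co-chaperones, -0.23 for endoplasmic reticulum protein folding, -0.56 for phenylpropanoid enzymes and their kelch F-box regulators, 0.22 for auxin response and transport. With the filter of mean 10 CPM, medians were -0.10 for other cyclophilins, 0.03 for abscisic acid and dehydration, 0.26 for circadian clock, -0.86 for sulfate assimilation and sulfur deficiency, -0.20 for nitrate assimilation and nitrogen regulators, 0.53 for auxin response and transport, -0.43 for cell division and DNA replication. With no filter on low counts, medians were -0.03 for galactinol and raffinose synthesis, 0.24 for auxin response and transport. Leaving out 1 library in turn gave medians of -0.18 to 0.29 for small heat shock proteins, -0.12 to 0.09 for HSP70, HSP90, HSP100 and HSP60 chaperones, 0.11 to 0.45 for co-chaperones, -0.02 to 0.61 for heat shock factors and heat regulators, -0.25 to 0.12 for endoplasmic reticulum protein folding, -0.11 to 0.02 for 26S proteasome subunits, -0.10 to 0.03 for other splicing factors, 0.08 to 0.50 for glutathione S-transferases, -0.33 to 0.01 for abscisic acid and dehydration. The range was -0.70 to 0.26 for jasmonate synthesis, signalling and targets, -0.54 to 0.13 for salicylic acid and defence, -0.02 to 0.31 for NLR immune receptors, -0.28 to 0.70 for rapid stress factors (ERF, WRKY, CBF, touch), -0.03 to 0.16 for circadian clock, -0.16 to 0.06 for light signalling, B-box and chloroplast regulators, -0.60 to -0.23 for aliphatic glucosinolate pathway, -0.28 to 0.21 for indole and shared glucosinolate pathway, -1.39 to -0.93 for sulfate assimilation and sulfur deficiency. The range was -0.91 to -0.18 for flavonoid and anthocyanin pathway, -0.59 to -0.42 for phenylpropanoid enzymes and their kelch F-box regulators, 0.06 to 0.32 for sugar-repressed and energy-starvation genes, -0.22 to -0.09 for nitrate assimilation and nitrogen regulators, 0.09 to 0.42 for auxin response and transport, -0.77 to -0.55 for cell division and DNA replication, -0.20 to 0.23 for histones H3.1 and H4, -0.25 to 0.01 for expansins, xyloglucan endotransglucosylases and GASA peptides, -0.33 to -0.07 for cuticle, wax and cutin. For the remaining lists it was 0.01 to 0.29 for SR splicing factors, -0.36 to -0.14 for Calvin cycle, -0.17 to 0.13 for nuclear photosystem and light-harvesting genes, -0.07 to 0.01 for other cyclophilins, -0.05 to 0.10 for antioxidant enzymes and oxidative stress regulators, -0.59 to -0.26 for galactinol and raffinose synthesis, -0.32 to -0.17 for fatty acid desaturases. The cause of these shifts was not tested. No named gene changed sign under any alternative. With 3 samples a group, the unadjusted 95% interval reached 0.86 to either side for the median gene, and a call after adjustment would need a larger difference.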
